A study of Mus musculus with 9 samples.

Results

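The lungs were examined for 9 genes of mast cells and basophils, the immune cells that carry the high-affinity receptor for immunoglobulin E (IgE). The members were chosen by symbol: the granule proteases Mcpt8, Cpa3, Mcpt4, Cma1 and Tpsb2, the receptor chains Fcer1a and Ms4a2, the histamine-forming enzyme Hdc and the transcription factor Gata2. All 9 were among the 45706 genes of the deposited table, and all 9 were among the 13248 genes that reached 1 TPM (a transcript abundance corrected for length and scaled to the same total in each library) in at least 3 of 9 libraries and were tested. Female BALB/c mice aged 4 to 6 weeks carried 4T1 cells, a mouse mammary carcinoma line, placed in the right flank. Tumour-bearing mice of every group were treated on days 7 and 14 and their lungs were taken on day 21. The control group received phosphate-buffered saline (PBS), the anti-PD1 group free antibody against PD1, an inhibitory receptor of T cells, and the nanocapsule group nanocapsules of anti-PD1. A dose of 150 µg per mouse is stated for the nanocapsules, and whether free antibody was given at this dose is unclear. There were 3 lungs in each group, all from mice with the tumour, and no lung without one was analysed here. Labels number the lungs without naming mice, so every p reflects variation among these libraries, part of which could be technical. The libraries held 12194 to 13407 genes at 1 TPM or more, and Scgb1a1, the club cell secretoglobin of the lung airway, was at 2462 to 9961 TPM.

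Mast cells live in tissues such as the airway wall, and basophils circulate in blood and enter inflamed tissue. In both cell types, antigen that bridges IgE on the high-affinity receptor sets off the release of granules that hold histamine and proteases, followed by lipid mediators and cytokines. In the mouse, the granule proteases encoded by Mcpt4, Cma1 and Tpsb2 mark mast cells, while the protease encoded by Mcpt8 marks basophils. The granule carboxypeptidase encoded by Cpa3 is found in both cell types. The lungs were whole-tissue samples, in which fewer cells of a type and less RNA per cell cannot be told apart.

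Of the members, the mast cell proteases Mcpt4 and Tpsb2 stood lowest against PBS in both antibody groups, and the basophil protease Mcpt8 and both IgE receptor chains stood near the PBS level. Cma1 was lower by value under nanocapsules, Cpa3 and Hdc were lower by value in both antibody groups, and Gata2 was higher by value under free antibody. None of these differences passed the test over all genes. Differences are given on the log2(TPM + 1) scale, which understates the change of genes with low TPM, with the standard error of a limma fit of the 9 libraries. Limma called a gene at a Benjamini-Hochberg adjusted p under 0.05.

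For anti-PD1 against PBS, limma called 0 of 9 members, where it called 0.00755% of all genes tested. At an unadjusted p under 0.05, 4 members were lower (8.06% of all genes) and 1 was higher (8.48%). For the nanocapsule against PBS it called 0 members, against 0.00755% of all genes, and at an unadjusted p under 0.05 it placed 5 members lower (8.92% of all genes) and 0 higher (1.22%). For the nanocapsule against anti-PD1 it called 0 members, against 0.106% of all genes, and at an unadjusted p under 0.05 it placed 2 members lower (21% of all genes) and 0 higher (6.69%). Both antibody groups together were also set against PBS, a comparison that shares all its libraries with the others, and 0 members were called against 0.00755% of all genes. At an unadjusted p under 0.05, 5 members were lower (5.97% of all genes) and 0 higher (2.17%). The median log2 difference of the members was -0.15, -0.32, -0.12 and -0.41 in these comparisons in turn, beside 0.04, -0.11, -0.17 and -0.04 over all genes tested. Means were lower in 6, 7, 6 and 6 of the 9 members, beside 43.1%, 71.2%, 70.8% and 59% of all genes.

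**Figure D1:**
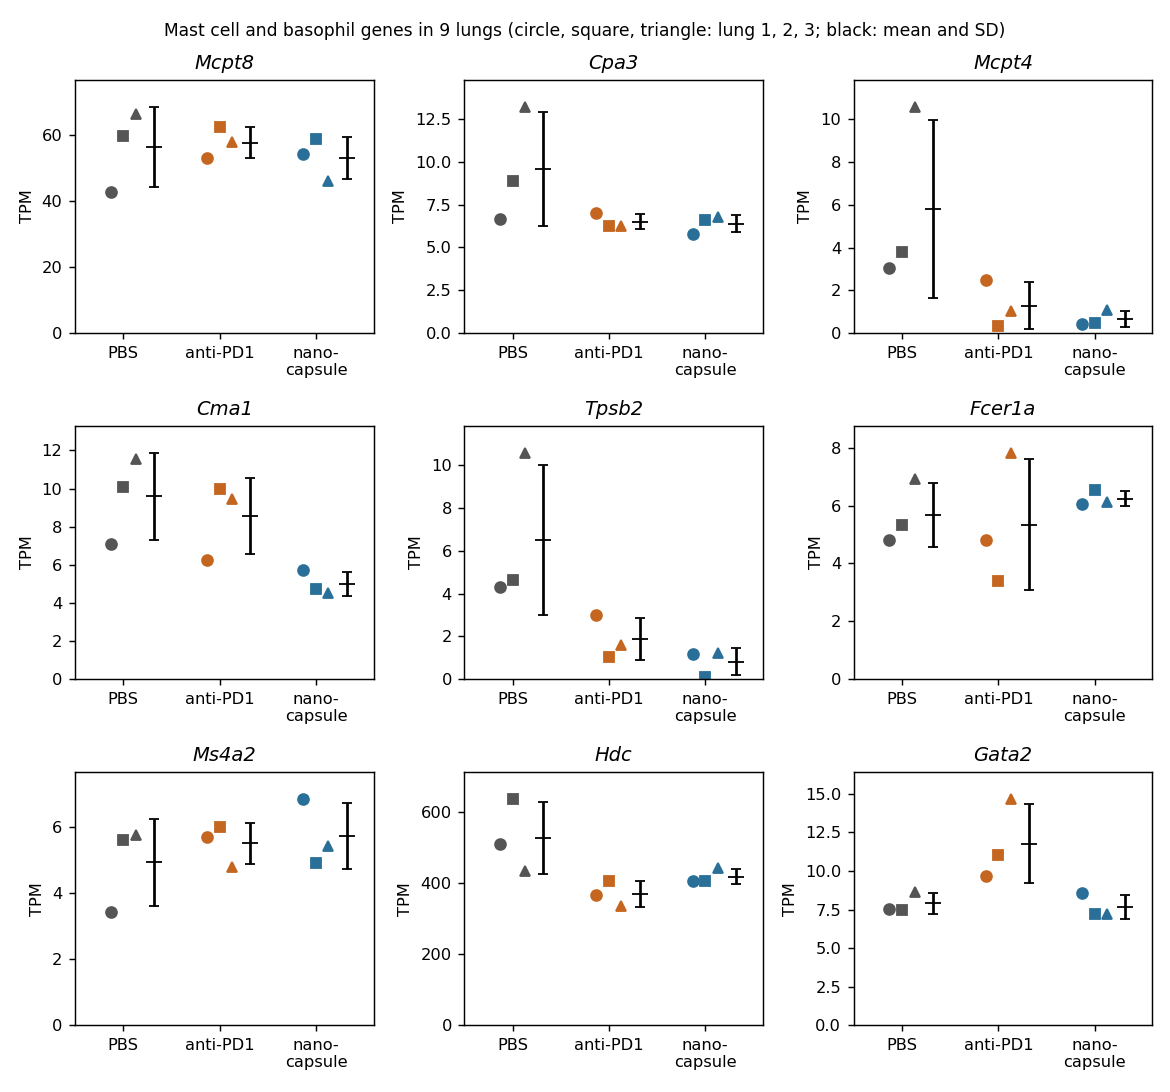
TPM of each member in each of the 9 lungs, by group, with circles, squares and triangles for lungs 1, 2 and 3 and black bars for the mean and SD of 3 lungs. Each axis starts at 0. Mcpt4 and Tpsb2 lie below every PBS lung in all 6 antibody-treated lungs, and the PBS values of Mcpt8 enclose all 6 others.

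The members differed widely in level. Averaged over the 9 lungs, Hdc was at 438 TPM and Mcpt8 at 55.6 TPM, and the other members lay between 2.58 and 9.11 TPM. Hdc and Mcpt8 stood apart from each other and from the rest with no overlap of libraries. Below them came Gata2 (9.11), Cma1 (7.72), Cpa3 (7.49), Fcer1a (5.75), Ms4a2 (5.40), Tpsb2 (3.07) and Mcpt4 (2.58 TPM), and neighbours in that order overlapped over the libraries. Each of 8 members was protein coding and detected at 1 TPM or more in at least 8 libraries, and Mcpt4, also protein coding, reached 1 TPM in 6, of which 3 were the PBS lungs.

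Of the proteases, 3 lie close together on chromosome 14. On build GRCm38 (GENCODE M21), Cma1 (chr14:55941451-55944675), Mcpt4 (chr14:56059629-56062313) and Mcpt8 (chr14:56082166-56085273) lie on the minus strand. Tpsb2 lies at chr17:25366305-25369098 on the plus strand, and Cpa3 at chr3:20215620-20242181 on the minus strand. The receptor chains lie apart, Fcer1a at chr1:173221284-173227214 and Ms4a2 at chr19:11615523-11623719, both on the minus strand. Hdc lies at chr2:126593667-126619299 on the minus strand and Gata2 at chr6:88193891-88207032 on the plus strand. Related proteases can exchange reads, so the share of each member's 31-base words that occurs in transcripts of another gene was counted. It was 12.15% for Mcpt4, mostly with the chymase Cma2, which was at 0 TPM in every lung, 10.6% for Cma1, with a predicted gene, 3.96% for Ms4a2, 0.56% for Tpsb2 with Tpsab1, 0.42% for Hdc, and 0 for Mcpt8, Cpa3, Fcer1a and Gata2.

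GATA2 binds DNA at short motifs built around the letters GATA. The bases before the start sites are shown for the chromosome 14 proteases Mcpt4, Cma1 and Mcpt8, which stood differently between the groups, for Cpa3 as a protease of both cell types, and for Ms4a2 as the receptor chain with the most matches. The sequences are the 250 bases before each start site, 5′ to 3′ on the minus strand, from RefSeq on GRCm38.p6. Capitals mark matches, on either strand, to 4 motifs that can overlap one another: AGATAA as the first motif, AGATAG as the second, TGATAA as the third and TGATAG as the fourth. Mcpt4 (chr14:56062311-56062560), Cma1 (chr14:55944676-55944925), Mcpt8 (chr14:56085198-56085447), Cpa3 (chr3:20242182-20242431) and Ms4a2 (chr19:11623720-11623969) read:
Mcpt4: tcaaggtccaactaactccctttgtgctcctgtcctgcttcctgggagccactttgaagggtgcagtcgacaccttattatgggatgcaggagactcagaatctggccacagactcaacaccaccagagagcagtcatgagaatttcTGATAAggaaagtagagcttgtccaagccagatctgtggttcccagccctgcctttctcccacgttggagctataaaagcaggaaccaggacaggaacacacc
Cma1: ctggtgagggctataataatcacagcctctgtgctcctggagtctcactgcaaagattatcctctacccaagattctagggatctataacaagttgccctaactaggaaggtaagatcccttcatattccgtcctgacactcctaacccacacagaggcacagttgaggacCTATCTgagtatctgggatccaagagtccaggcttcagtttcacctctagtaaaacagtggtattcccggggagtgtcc
Mcpt8: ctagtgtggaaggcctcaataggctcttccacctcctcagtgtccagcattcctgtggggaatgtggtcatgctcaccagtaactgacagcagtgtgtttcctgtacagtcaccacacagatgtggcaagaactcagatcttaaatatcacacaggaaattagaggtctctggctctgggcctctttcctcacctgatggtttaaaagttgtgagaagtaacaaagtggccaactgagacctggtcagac
Cpa3: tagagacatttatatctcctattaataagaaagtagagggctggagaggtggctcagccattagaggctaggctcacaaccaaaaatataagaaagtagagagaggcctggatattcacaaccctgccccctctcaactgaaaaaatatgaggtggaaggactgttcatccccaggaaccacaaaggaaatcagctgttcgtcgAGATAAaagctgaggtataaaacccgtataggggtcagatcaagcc
Ms4a2: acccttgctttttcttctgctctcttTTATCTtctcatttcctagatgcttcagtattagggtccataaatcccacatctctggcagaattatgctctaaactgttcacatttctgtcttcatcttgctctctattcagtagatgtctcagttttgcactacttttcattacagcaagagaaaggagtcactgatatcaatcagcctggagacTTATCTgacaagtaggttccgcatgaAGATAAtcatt
Mcpt4 had TGATAA, starting 103 bases before the start site, Cma1 had CTATCT (the reverse complement of the second motif) 79 bases before it, and Cpa3 had AGATAA 46 bases before it. Ms4a2 had 3 matches and Mcpt8 had none of these letters in this window. The Mcpt8 and Mcpt4 windows follow RefSeq start sites and overlap the GENCODE genes given above, so they are not wholly upstream of the GENCODE starts. The promoter table held 9 windows for 8 of the members, with 2 for Gata2 and no entry matched for Tpsb2. Of these windows 6 held a match, and 26.5% of the 32851 windows of the same length in the table did. A match is a description of the letters, not a bound site.

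Mcpt4 encodes a chymase, a chymotrypsin-like protease of connective tissue mast cells. It was at 3.02, 3.79 and 10.6 TPM under PBS (lungs 1, 2 and 3), at 2.47, 0.334 and 1.05 TPM under free antibody and at 0.438, 0.458 and 1.07 TPM under nanocapsules. PBS lung 3 was the highest by a wide margin, and every antibody-treated lung was below every PBS lung. Group means were 5.80 ± 4.16, 1.28 ± 1.09 and 0.656 ± 0.360 TPM (SD, n = 3), so the PBS mean was 4.52-fold the anti-PD1 mean and 8.85-fold the nanocapsule mean. The log2 difference was -1.52 for anti-PD1 against PBS (SE 0.43, limma adjusted p = 0.211) and -1.90 for the nanocapsule against PBS (SE 0.43, limma adjusted p = 0.338). Between the antibody groups it was -0.38 (SE 0.43, limma adjusted p = 0.573), with an unadjusted 95% interval from -1.33 to 0.58, and their libraries overlapped. With single lungs left out it ran from -0.71 (without anti-PD1 lung 2) to -0.02 (without anti-PD1 lung 1), and it was -0.62 with a pseudocount of 0.1 and -0.12 under quantile scaling.

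Tpsb2 encodes a tryptase, the trypsin-like protease that mast cells store on heparin. Its levels were 4.30, 4.65 and 10.6 TPM under PBS (lungs 1, 2 and 3), 2.98, 1.04 and 1.60 TPM under free antibody and 1.16, 0.0812 and 1.21 TPM under nanocapsules. PBS lung 3 was again on top, nanocapsule lung 2 was the lowest, and no antibody-treated lung reached the PBS range. The PBS mean of 6.51 ± 3.53 TPM was 3.47-fold the anti-PD1 mean of 1.87 ± 0.997 TPM and 7.95-fold the nanocapsule mean of 0.818 ± 0.639 TPM (SD, n = 3). Log2 differences from PBS were -1.35 for anti-PD1 (SE 0.39, limma adjusted p = 0.211) and -2.02 for the nanocapsule (SE 0.39, limma adjusted p = 0.280). By unadjusted p, Tpsb2 ranked 16 of 13248 genes in the nanocapsule comparison and Mcpt4 ranked 48, and neither was called. For the nanocapsule against anti-PD1 the Tpsb2 difference was -0.68 (SE 0.39, limma adjusted p = 0.267), with an interval from -1.54 to 0.18. It was -0.34 without nanocapsule lung 2, -0.41 without anti-PD1 lung 1, -0.38 under quantile scaling and -1.44 with a pseudocount of 0.1.

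Over both antibody groups, Mcpt4 stood at -1.71 against PBS (log2, SE 0.37, limma adjusted p = 0.592) and Tpsb2 at -1.68 (SE 0.33, limma adjusted p = 0.514). They were the 2 members whose 6 antibody-treated lungs all lay below the 3 PBS lungs, as did 1.84% of all genes tested, while 0 members and 0.551% of all genes lay above. Over the alternatives of the fit the adjusted p ran from 0.222 to 0.863 for Mcpt4 and from 0.221 to 0.769 for Tpsb2. Without PBS lung 3 the differences were -1.24 and -1.32, and the PBS means 3.41 and 4.48 TPM. Levels of airway, smooth muscle and cardiac muscle markers were read beside them. The summed TPM of 10 airway epithelial markers ran from 2840 to 7299 under PBS, from 3590 to 10700 under free antibody and from 2813 to 8593 under nanocapsules, so the groups overlapped, and 0 of the 10 were at 0 in all lungs. PBS lung 3 had the highest airway sum of the PBS lungs, and anti-PD1 lungs 2 and 3 and nanocapsule lung 1 had higher sums than it. Scgb1a1 made up most of this sum in every lung. Scgb3a2, Cyp2f2 and Krt5 were also higher in those antibody-treated lungs than in PBS lung 3. Foxj1, Bpifa1 and Muc5b were lower in them, and Tppp3, Ccdc153 and Tekt1 were mixed. The sum of 8 smooth muscle markers ran from 14.3 to 15.9 TPM under PBS, from 18.0 to 19.0 under free antibody and from 13.8 to 15.1 under nanocapsules. Of 6 cardiac muscle markers, 5 were tested and 0 called by limma, and all 5 had higher means over both antibody groups than under PBS. Myh6, Tnnt2 and Actc1 reached 1 TPM in antibody-treated lungs alone, so they passed the filter only through the groups where they were high. That direction was therefore set in part by the filter and is a description. Ryr2, which did not pass, averaged 0.0875 TPM under PBS, 0.0578 under free antibody and 0.0237 under nanocapsules. The sum of the 6 markers ran from 2.52 to 8.90 TPM under PBS, from 7.82 to 19.6 under free antibody and from 3.94 to 19.3 under nanocapsules. Of the 6, 0 were at 0 in all lungs. The part of these tissues in the Mcpt4 and Tpsb2 values was not tested.

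Cma1 encodes a further mast cell protease, related to the chymases. It was at 7.11, 10.1 and 11.6 TPM under PBS (lungs 1, 2 and 3), at 6.25, 9.96 and 9.45 TPM under free antibody and at 5.72, 4.75 and 4.53 TPM under nanocapsules. The anti-PD1 lungs overlapped the PBS lungs, and the nanocapsule lungs lay below all lungs of both other groups. Means were 9.59 ± 2.27, 8.56 ± 2.01 and 4.999 ± 0.6305 TPM (SD, n = 3). The log2 difference was -0.15 for anti-PD1 against PBS (SE 0.21, limma adjusted p = 0.756), with an unadjusted 95% interval from -0.61 to 0.31, and 0.04 without anti-PD1 lung 1. It was -0.80 for the nanocapsule against PBS (SE 0.21, limma adjusted p = 0.364) and -0.65 for the nanocapsule against anti-PD1 (SE 0.21, limma adjusted p = 0.102). Every nanocapsule lung was lower than every PBS lung in 3 members, Cma1, Mcpt4 and Tpsb2, and in 11.9% of all genes, and above them in 0 members and 2.4% of all genes. Every nanocapsule lung was lower than every anti-PD1 lung in 2 members, Cma1 and Gata2, and in 24.6% of all genes, and higher in 0 members and 8.73% of all genes.

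Cpa3 encodes carboxypeptidase A3, a granule enzyme of mast cells that basophils and their progenitors also express. The PBS lungs held 6.66, 8.87 and 13.2 TPM, the anti-PD1 lungs 7.00, 6.23 and 6.26 TPM and the nanocapsule lungs 5.80, 6.61 and 6.76 TPM. PBS lung 3 was again the highest, and PBS lung 1 lay within the range of the antibody-treated lungs. Means were 9.58 ± 3.33, 6.50 ± 0.434 and 6.39 ± 0.512 TPM (SD, n = 3). Log2 differences from PBS were -0.45 for anti-PD1 (SE 0.20, limma adjusted p = 0.300) and -0.47 for the nanocapsule (SE 0.20, limma adjusted p = 0.474). They were -0.22 and -0.24 without PBS lung 3.

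Mcpt8 encodes a granule protease that in mice marks basophils. Its levels were 42.8, 59.8 and 66.3 TPM under PBS (lungs 1, 2 and 3), 52.9, 62.2 and 57.7 TPM under free antibody and 54.2, 58.7 and 46.1 TPM under nanocapsules. The PBS lungs spanned the widest range and enclosed all 6 other lungs. Means were 56.3 ± 12.2, 57.6 ± 4.66 and 53.0 ± 6.37 TPM (SD, n = 3). The log2 difference from PBS was 0.05 for anti-PD1 (SE 0.16, limma adjusted p = 0.901) and -0.07 for the nanocapsule (SE 0.16, limma adjusted p = 0.899). Unadjusted 95% intervals ran from -0.30 to 0.41 and from -0.42 to 0.28, which leaves room for changes of those sizes in either direction.

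**Figure D2:**
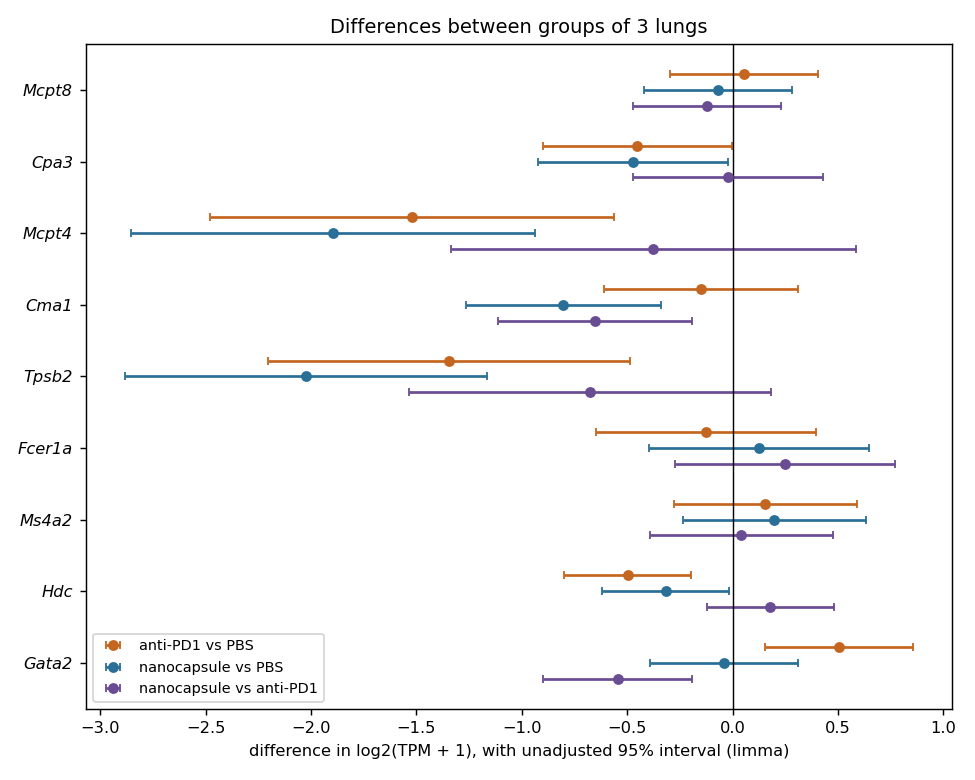
Difference between group means in log2(TPM + 1) for each member and each comparison of 2 groups, with unadjusted 95% intervals from limma. The points for Mcpt4 and Tpsb2 against PBS lie between -1.35 and -2.02, and those for Mcpt8 between -0.12 and 0.05 over the 3 comparisons.

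Fcer1a encodes the alpha chain of the high-affinity IgE receptor, the chain that binds IgE. It was at 4.80, 5.34 and 6.92 TPM under PBS, at 4.81, 3.39 and 7.81 TPM under free antibody and at 6.05, 6.53 and 6.13 TPM under nanocapsules. Anti-PD1 lung 2 was the lowest and anti-PD1 lung 3 the highest of all 9, so the groups overlapped. Log2 differences from PBS were -0.12 for anti-PD1 (SE 0.23, limma adjusted p = 0.828) and 0.13 for the nanocapsule (SE 0.23, limma adjusted p = 0.872), with unadjusted 95% intervals from -0.65 to 0.40 and from -0.40 to 0.65.

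Ms4a2 encodes the beta chain, which amplifies the signal of the same receptor. It was at 3.43, 5.62 and 5.77 TPM under PBS, at 5.72, 6.02 and 4.82 TPM under free antibody and at 6.85, 4.92 and 5.44 TPM under nanocapsules. PBS lung 1 was the lowest of the 9, and the other 8 lungs overlapped across groups. Log2 differences from PBS were 0.16 for anti-PD1 (SE 0.20, limma adjusted p = 0.726) and 0.20 for the nanocapsule (SE 0.20, limma adjusted p = 0.739), with unadjusted 95% intervals from -0.28 to 0.59 and from -0.24 to 0.63. They were -0.04 and -0.0014 without PBS lung 1.

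Hdc encodes histidine decarboxylase, which makes histamine and is also expressed by immature myeloid cells and neutrophils. It was by far the most abundant member, at 511, 635 and 434 TPM under PBS (lungs 1, 2 and 3), 366, 407 and 336 TPM under free antibody and 405, 407 and 442 TPM under nanocapsules. All anti-PD1 lungs were below all PBS lungs, as they also were in Mcpt4 and Tpsb2 and in 13.4% of all genes, and nanocapsule lung 3 lay above PBS lung 3. Means were 527 ± 102, 370 ± 35.8 and 418 ± 20.6 TPM (SD, n = 3). The log2 difference was -0.50 for anti-PD1 against PBS (SE 0.13, limma adjusted p = 0.211) and -0.32 for the nanocapsule against PBS (SE 0.13, limma adjusted p = 0.474), and the latter was -0.17 without PBS lung 2. Neutrophil transcripts were read beside these values. In the anti-PD1 lungs 14 of 14 neutrophil granule markers had lower means than under PBS, and under nanocapsules 13 of 14 had higher means. The sum of S100a8 and S100a9, the main neutrophil transcripts, ran from 120541 to 167399 TPM under PBS, from 103029 to 119545 under free antibody and from 154952 to 175166 under nanocapsules. PBS lung 2 was highest of the PBS lungs in both Hdc and this sum. The part of neutrophils in the Hdc values was not tested.

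Gata2 encodes a transcription factor needed for mast cell and basophil development, which endothelial cells also express. Levels were 7.53, 7.501 and 8.67 TPM under PBS, 9.67, 11.003 and 14.6 TPM under free antibody and 8.57, 7.19 and 7.22 TPM under nanocapsules. The anti-PD1 lungs lay above all other lungs, and the PBS and nanocapsule lungs overlapped. Against PBS, all anti-PD1 lungs were higher in 1 member and in 12.1% of all genes. Means were 7.90 ± 0.665, 11.8 ± 2.57 and 7.66 ± 0.7855 TPM (SD, n = 3). The log2 difference was 0.51 for anti-PD1 against PBS (SE 0.16, limma adjusted p = 0.217), -0.04 for the nanocapsule against PBS (SE 0.16, limma adjusted p = 0.947) and -0.55 for the nanocapsule against anti-PD1 (SE 0.16, limma adjusted p = 0.0903). Lung endothelial markers stood higher beside it, and 10 of 10 had higher means under free antibody than under PBS, and none was at 0 in all lungs. Their summed level ran from 35.8 to 92.5 TPM under PBS, from 114 to 214 under free antibody and from 34.6 to 85.1 under nanocapsules, and anti-PD1 lung 3 was highest in both Gata2 and this sum. The part of endothelium in the Gata2 values was not tested.

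**Figure D3:**
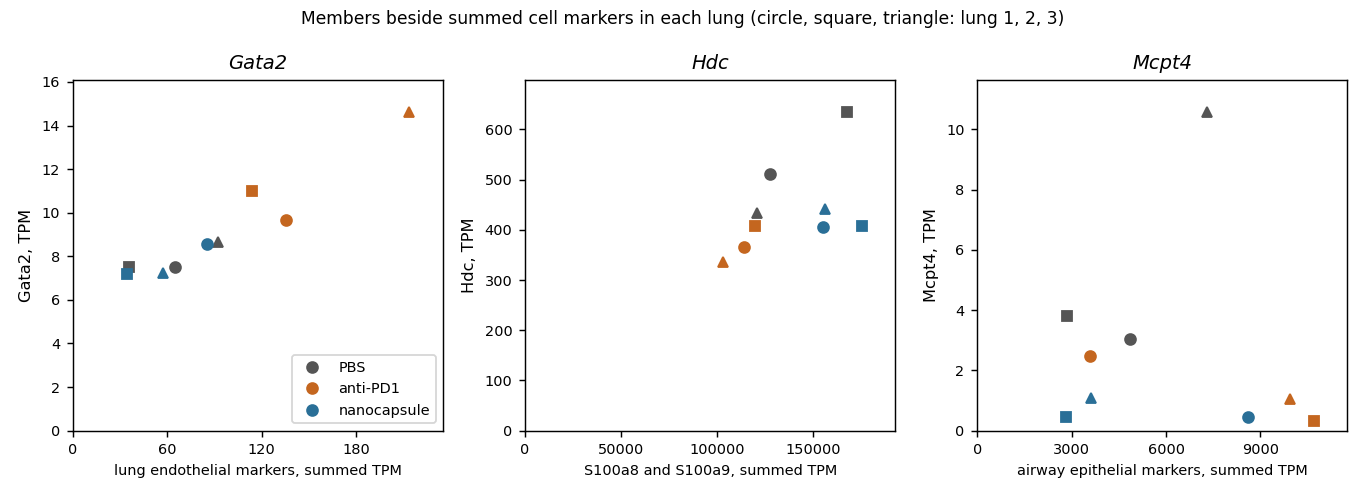
Each point is 1 lung, with its group in colour and its number by shape. The vertical axes give Gata2, Hdc and Mcpt4 in TPM, and the horizontal axes the summed TPM of 10 lung endothelial markers, of S100a8 and S100a9, and of 10 airway epithelial markers, all from 0. The anti-PD1 lungs have the highest Gata2 and the highest endothelial sums, and PBS lung 3 has 10.6 TPM of Mcpt4 at an airway sum of 7299 TPM. Anti-PD1 lungs 2 and 3 and nanocapsule lung 1 have higher airway sums, with Mcpt4 at 0.334, 1.05 and 0.438 TPM. The airway sum is mostly Scgb1a1, and not every airway marker has this order of lungs.

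Of 12 other mast cell genes, 5 passed the filter on low values and limma called 0 of them in each comparison of 2 groups and in that of both antibody groups with PBS. Tpsab1, the tryptase paired with Tpsb2, was at 2.35, 1.03 and 4.10 TPM under PBS, at 0.778, 0.476 and 0.154 TPM under free antibody and at 0.393, 0.0742 and 0.790 TPM under nanocapsules, and every antibody-treated lung was below every PBS lung. Tpsab1 reached 1 TPM in the 3 PBS lungs alone, so it passed the filter only through the group where it was high. Its values are a description. It is counted among the 5 tested genes above, but no difference or p is given for it by name. Kit, the receptor for stem cell factor on which mast cells depend, had a log2 difference of -0.17 for both antibody groups against PBS (SE 0.18) and Slc18a2, which loads histamine into granules, one of -0.16 (SE 0.15), with unadjusted 95% intervals from -0.57 to 0.23 and from -0.49 to 0.18. The 7 genes that did not pass included Mcpt9 and Cma2, at 0 in every lung. Mcpt1 and Mcpt2, the mucosal mast cell proteases, which were picked out after their values were seen, were highest in PBS lung 3, at 2.37 and 4.02 TPM, and at most 1.55 TPM elsewhere.

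**Figure D4:**
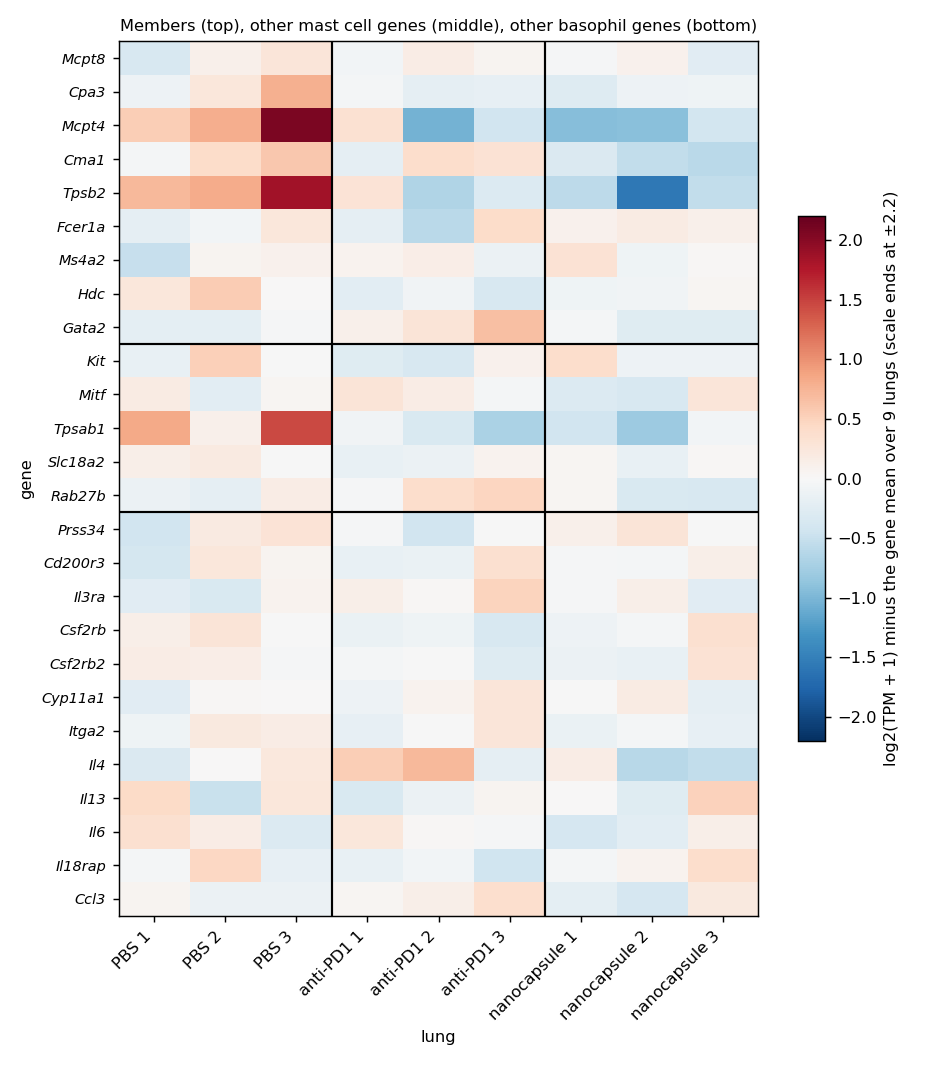
Rows are the members, the 5 other mast cell genes and the 12 other basophil genes that were tested, and columns are the 9 lungs by group. Colour is log2(TPM + 1) minus the gene's mean over the lungs, red above and blue below it. Mcpt4, Tpsb2 and Tpsab1 are above their means in the 3 PBS lungs, darkest in PBS lung 3, and Mcpt4 and Tpsb2 also in anti-PD1 lung 1.

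All 12 other basophil genes passed the filter, and limma called 0 in any of the 4 comparisons. For both antibody groups against PBS, 7 had lower and 5 higher means, 0 had an unadjusted p under 0.05, and the median log2 difference was -0.07, beside -0.04 over all genes tested. Csf2rb and Csf2rb2, subunits of the receptors for interleukin 3 and related cytokines, had differences of -0.21 (SE 0.12) and -0.14 (SE 0.12), and Il3ra, the specific chain for interleukin 3, one of 0.25 (SE 0.15). Csf2rb was at 211 to 344 TPM and Ccl3 at 102 to 169 TPM over the lungs, above all values of Fcer1a and Ms4a2. The part of other cells in the values of this list was not tested. Prss34, a basophil protease picked out after its values were seen, was at 37.6, 58.9 and 63.2 TPM under PBS, 49.8, 37.7 and 50.5 TPM under free antibody and 55.2, 62.4 and 50.4 TPM under nanocapsules. Its groups overlapped, as those of Mcpt8 did, and PBS lung 1 was the lowest lung in both genes.

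Genes that carry the receptor's signal are shared by most leukocytes. Of 15, limma called 0 in each comparison. Means were lower in both antibody groups together than in PBS for 14, beside 59% of all genes, with a median of -0.18. At an unadjusted p under 0.05, 4 were lower (5.97% of all genes). The 3 with the smallest p were Syk, a kinase that docks on the receptor (-0.31, SE 0.12), Lcp2, an adaptor (-0.25, SE 0.10), and Pik3cd, a lipid kinase subunit (-0.23, SE 0.10). The limma adjusted p was 0.608 for each. For anti-PD1 alone 6 of the 15 were lower at an unadjusted p under 0.05 (8.06% of all genes), and for the nanocapsule alone 2 (8.92%). Neutrophil granule markers were also lower by value under free antibody, as given beside Hdc. Under nanocapsules 13 of these 15 genes had lower means than under PBS (71.2% of all genes), and 13 of 14 neutrophil markers had higher means. The part of neutrophils in this list was not tested. The list includes Fcer1g, the gamma chain of the receptor, which other Fc receptors also use and which was picked out after its values were seen. It was at 1207 to 1684 TPM over the 9 lungs, and all its TPM values, which are per length, were above those of Fcer1a and Ms4a2.

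Genes of granule storage and lipid mediators gave 0 calls by limma among 10, all tested, with 5 lower and 5 higher means for both antibody groups against PBS and a median of -0.05. The 3 with the smallest p were Srgn, the granule proteoglycan serglycin (-0.22, SE 0.11), Lta4h, an enzyme of leukotriene synthesis (-0.19, SE 0.10), and Ptgs2, an inducible prostaglandin synthase (-0.34, SE 0.22), and 0 of the 10 had an unadjusted p under 0.05. Among 6 genes of histamine receptors and breakdown, 2 were tested and 0 were called. Hrh2, the H2 receptor, had a difference of -0.48 for anti-PD1 against PBS (SE 0.16, limma adjusted p = 0.227) and of -0.03 for the nanocapsule (SE 0.16, limma adjusted p = 0.956). Hnmt, which inactivates histamine, had differences of -0.35 and 0.04 (SE 0.15 each), and the part of the neutrophil levels in both was not tested.

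Of 9 genes of growth and activating cytokines and their receptors, 5 were tested and limma called 0. Il3 and Il9 were at 0 TPM in every lung. Kitl encodes stem cell factor, the growth factor of mast cells. It was at 2.07, 1.27 and 2.58 TPM under PBS, at 4.80, 3.98 and 6.01 TPM under free antibody and at 2.51, 0.999 and 1.52 TPM under nanocapsules, so the anti-PD1 lungs lay above all others. Its log2 difference was 1.01 for anti-PD1 against PBS (SE 0.25, limma adjusted p = 0.211) and -1.17 for the nanocapsule against anti-PD1 (SE 0.25, limma adjusted p = 0.0634). The endothelial marker sums given beside Gata2 were likewise highest under free antibody, and their part in Kitl was not tested. Il1rl1, the receptor for interleukin 33, had differences of -0.12 for anti-PD1 and -0.47 for the nanocapsule against PBS (SE 0.17 each), and Il18 had 0.55 and -0.15 (SE 0.22 each).

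Eosinophil genes, markers of the other granulocyte of allergic responses, were read beside the members. Of 8 tested, 6 had lower means under free antibody and 8 under nanocapsules than under PBS, and limma called 0. Over both antibody groups against PBS, 6 of the 8 were lower at an unadjusted p under 0.05, beside 5.97% of all genes. The median log2 difference was -0.76 and the smallest limma adjusted p 0.0770. Prg3 and Il5ra, which are among the 6, passed the filter only through their PBS lungs. Outside PBS, Prg3 reached 1 TPM only in nanocapsule lung 3 and Il5ra only in anti-PD1 lung 1. These counts and the median were therefore set in part by the filter. The summed level of all 9 markers ran from 399 to 487 TPM under PBS, from 442 to 518 under free antibody and from 252 to 399 under nanocapsules, and none was at 0 in all lungs. Ear1 and Siglecf made up most of this sum and had higher means under free antibody than under PBS (381 against 273 TPM and 68.5 against 54.1 TPM). Whether the RNA of Ear1 and Siglecf came from eosinophils was not tested, so the sum is not a measure of eosinophils. Named after their values were seen, Prg2, the eosinophil major basic protein, averaged 34.9 TPM under PBS, 6.66 under free antibody and 11.0005 under nanocapsules, and Ear6, an eosinophil-associated ribonuclease, 36.4, 11.5 and 14.8 TPM. Alox15, a lipoxygenase, averaged 25.4, 8.78 and 12.1 TPM and Ccr3, the eotaxin receptor, 4.29, 2.10 and 2.19 TPM. In each of these 4 genes all antibody-treated lungs were below all PBS lungs, as they were in 5 of the 8 tested markers and in 1.84% of all genes. The part of eosinophils in the values of the members was not tested.

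The genes whose profiles lay nearest to each member were found by the root mean square difference of log2(TPM + 1), with each gene centred on its own mean over the 9 lungs, among 11731 candidates. These distances share the same libraries and the same scaling and are descriptions. Nearest to Mcpt4 were Tpsab1 (0.48) and Hsph1 (0.49), a chaperone of the HSP110 family, and nearest to Tpsb2 were Hsph1 (0.37) and Tpsab1 (0.46), against a spread of the members themselves of 0.97 and 0.96. Tpsab1 was among the candidates only because its PBS lungs passed the filter, so its high level under PBS was set in part by that choice. Between members, Mcpt4 and Tpsb2 lay 0.30 apart. Hsph1 was at 19.0 to 38.4 TPM under PBS, 13.2 to 18.7 under free antibody and 6.74 to 11.008 under nanocapsules. Hdc lay nearest to Hif1a and Rab11fip1 (0.07 each, own spread 0.25), Gata2 to Tmem88 and Dpm3 (0.10 each, own spread 0.29), and Cma1 to Syne4 and H2-Q10 (0.19 each, own spread 0.42). For Cpa3 the nearest were Ikzf5 (0.13) and Slfn5 (0.14), and for Mcpt8 Zfp296 (0.08) and Uqcc3 (0.09). Fcer1a lay nearest to Entpd5 and Unkl (0.15 each) and Ms4a2 to Fam26f (0.11) and Lppos (0.12). The closest members were Mcpt8 and Ms4a2, 0.19 apart.

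**Figure D5:**
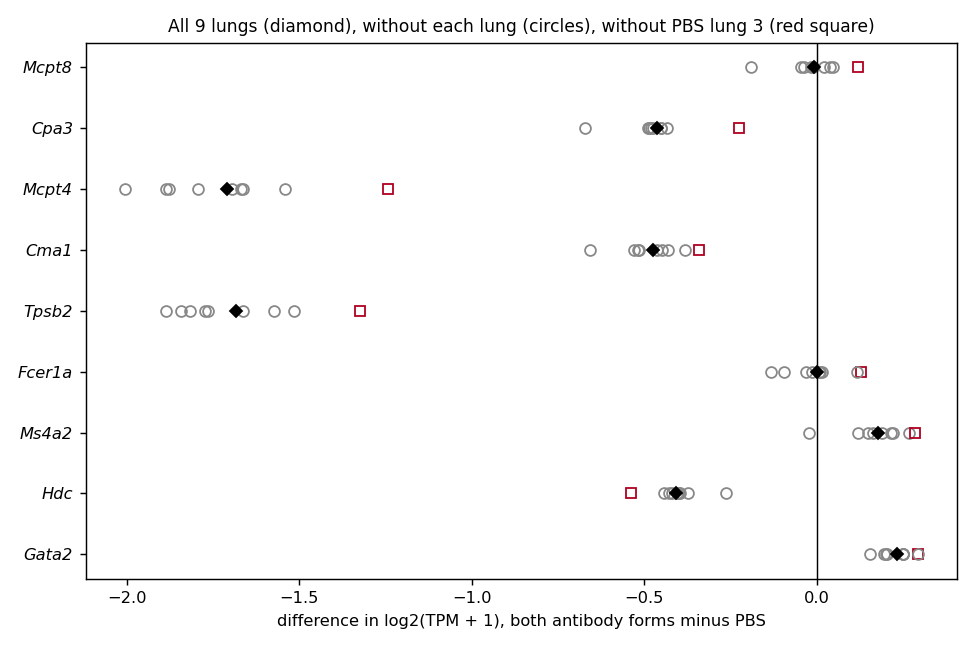
Difference in log2(TPM + 1) between both antibody groups and PBS for each member, from all 9 lungs (black diamonds) and after leaving out each lung in turn (grey circles, and a red square for PBS lung 3). The Mcpt4 values run from -2.00 to -1.24 and the Tpsb2 values from -1.89 to -1.32, and those of Fcer1a, Mcpt8 and Ms4a2 lie on both sides of 0.

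PBS lung 3 was highest of the PBS lungs in 8 members, all but Hdc, and PBS lung 1 was lowest of the PBS lungs in the same genes other than Gata2. Leaving out each lung in turn, the difference of both antibody groups from PBS ran from -2.00 to -1.24 for Mcpt4, from -1.89 to -1.32 for Tpsb2, from -0.67 to -0.23 for Cpa3, from -0.66 to -0.34 for Cma1 and from -0.54 to -0.26 for Hdc. For Gata2 it ran from 0.15 to 0.29. In these fits the values nearest to 0 came without PBS lung 3 for these 4 proteases, without PBS lung 2 for Hdc and without anti-PD1 lung 3 for Gata2.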

How the data were processed

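Poly(A) RNA of 9 lungs was sequenced, with 3 libraries in each group as the titles and library names give them. The values deposited by the authors are TPM for each gene and sum to 1000000 in each library. Salmon appears in the table's name, and DESeq2 and build GRCm38 are listed in the submitters' processing notes, without roles or versions. TPM keep no sequencing depth, so depth was unknown.

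Differences were fitted in limma 3.58.1 (R 4.3.3) with a trend on log2(TPM + 1), over genes that reached 1 TPM in 3 or more of 9 libraries, all groups sharing 1 spread (6 residual degrees of freedom). Tests are two-sided and adjusted over 13248 genes by Benjamini-Hochberg, and 95% intervals are unadjusted. The fit was tested on simulated data with independent noise in each library. That covered neither libraries that vary together nor shifts as small as those of most members. No batch is labelled, and no column was left out. Members and gene lists were chosen with earlier results of these data known. Named by rule are the members and the 3 tested genes of each related list with the smallest p over both antibody groups against PBS. The 2 nearest profiles of each member are also named, leaving out predicted genes, clones, pseudogenes and receptor segments. Other genes, such as Mcpt1, Mcpt2, Prss34, Fcer1g and markers of other cell types, were named outside this rule. Some of them were picked after their values were seen. Alternatives were pseudocounts of 0.1 and 0.5, no filter or 1 TPM in all libraries, median-of-ratios and quantile scaling, TPM without S100a8 and S100a9, no trend, the compared groups alone, a replicate block, and each library left out.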

Additional observations from a re-analysis of the deposited data

How the results depend on the processing

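Limma called 0 members in all 667 fits of a member under an alternative, and 630 of these kept the direction of the main value. The 37 that did not had main values between -0.15 and 0.20. Under median-of-ratios scaling, Mcpt8 turned to -0.0005 with free antibody against PBS, 0.046 for the nanocapsule against PBS, 0.0464 for the nanocapsule against anti-PD1 and 0.0227 for both groups against PBS, Gata2 to 0.0638 for the nanocapsule against PBS, and Cpa3 to 0.13 for the nanocapsule against anti-PD1. Under quantile scaling, Mcpt8 turned to 0.0217 and Gata2 to 0.12 for the nanocapsule against PBS, Cpa3 to 0.24 for the nanocapsule against anti-PD1 and Mcpt8 to 0.0475 for both groups against PBS. Without S100a8 and S100a9, Cpa3 was at 0.0518 for the nanocapsule against anti-PD1 and Fcer1a at -0.0009 for both groups against PBS, and Fcer1a was at -0.0042 and -0.0017 with pseudocounts of 0.1 and 0.5. With single libraries left out, values for anti-PD1 against PBS ran from -0.13 to 0.18 (Mcpt8), -0.0437 to 0.26 (Ms4a2), -0.39 to 0.11 (Fcer1a) and -0.33 to 0.0382 (Cma1). For the nanocapsule against PBS they ran from -0.25 to 0.0594 (Mcpt8), -0.0014 to 0.31 (Ms4a2) and -0.11 to 0.0206 (Gata2), and for the nanocapsule against anti-PD1 from -0.0574 to 0.037 (Cpa3) and -0.0733 to 0.13 (Ms4a2). For both groups against PBS they ran from -0.13 to 0.13 (Fcer1a), -0.0225 to 0.28 (Ms4a2) and -0.19 to 0.12 (Mcpt8).

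The count of all genes called moved with the settings, and the cause was not tested. For anti-PD1 against PBS it was 1, and 0 with a pseudocount of 0.1, median-of-ratios or quantile scaling, no S100a8 and S100a9, or no trend, 2 with at least 1 TPM in all libraries, and 0 to 3 with a library left out. For the nanocapsule against PBS it was 1, and 2 with a pseudocount of 0.1 or 0.5 or no trend, 0 with no filter or quantile scaling, 3 with the strict filter, 4 with median-of-ratios scaling or without S100a8 and S100a9, and 0 to 4 with a library left out. For the nanocapsule against anti-PD1 it was 14, and 3 with no filter, 190 with the strict filter, 75 with quantile scaling, 72 without S100a8 and S100a9, 2 with no trend, 476 in the compared groups alone, and 0 to 962 with a library left out, with 962 without PBS lung 2, 188 without PBS lung 3, 5 without nanocapsule lung 1, and 0 or 1 without nanocapsule lung 2 or 3 or any anti-PD1 lung. For both groups against PBS it was 1, and 0 with no filter, 3 with the strict filter, 2 with median-of-ratios scaling, and 1 to 4 with a library left out.

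The replicate numbers are not stated to pair the lungs, and deviations from group means correlated from -0.18 to 0.28 between lungs of the same number, over 0.1 in 3 of 9 pairs, with 3 of 9 lungs closest to their own number. A replicate block gave 1, 5, 1095 and 1 called genes in the 4 comparisons in turn and called 0 members. The strict filter left out Mcpt4 and Tpsb2, and the values of both groups against PBS had no fit of the compared groups alone, since they use all libraries. Depth is unknown, and levels under 1 TPM are the least certain. Mcpt4 was under 1 TPM in anti-PD1 lung 2 and nanocapsule lungs 1 and 2, and Tpsb2 in nanocapsule lung 2.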
